A study of Rattus norvegicus with 9 samples.

Results

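The early growth response factors Egr1, Egr2, Egr3 and Egr4 were followed in rat lung over 4 groups that differed in the way of breathing and in the oxygen level. These are 4 of the 4736 genes with a probe set of their own, and all probe sets annotated to them were taken, which gave 8 of the 8740 that are not controls. Egr1 had 4 probe sets, Egr2 and Egr3 had 1 each, and Egr4 had 2. Total RNA of whole lung was hybridised to 9 arrays. The groups were mechanical ventilation with 100% oxygen (ventilated 100%), mechanical ventilation with 21% oxygen (ventilated 21%), spontaneous breathing with 100% oxygen (spontaneous 100%) and spontaneous breathing with 21% oxygen (spontaneous 21%). Each group held 2 samples, lettered a and b. The letter b sample of ventilated 100% was read on 2 arrays, whose log2 values were averaged, so that 8 samples entered the tests. The sources used here do not give strain, age, ventilator settings or the duration of exposure. Whether letters a and b stand for different animals is not stated in the labels, so the p-values below reflect only how far these samples spread, and that spread may be technical.

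Egr proteins are zinc finger transcription factors that bind GC-rich sequence. Their genes belong to the immediate early genes, which are transcribed within minutes of a growth factor, stretch, hypoxia or oxidant signal without new protein synthesis. Much of that response runs through MAP kinases to serum response factor and its Elk partners, which bind CArG boxes, and through CREB, which binds the cyclic AMP response element. In lung and vessel wall Egr1 is known for driving genes of clotting, adhesion and matrix turnover, from work largely in mice and cultured cells. Egr2 is known for peripheral myelin and, together with Egr3, for restraint of T lymphocytes. Egr3 is needed for muscle spindles and Egr4 for male fertility, both known from mice.

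The promoters are shown because they carry both kinds of site close to the start of the gene. Promoter sequences came from RefSeq on build GRCr8, and the set used held 3 of the 4 genes. Egr3 has an annotated locus but no sequence in that set. Egr1 lies at chr18:26737078-26740877, and the 250 bases before its start, chr18:26736828-26737077 on the plus strand, read as follows, with CArG boxes (CC, 6 bases of A or T, GG) and the core ACGTCA of the cyclic AMP response element in capitals.
Egr1 promoter: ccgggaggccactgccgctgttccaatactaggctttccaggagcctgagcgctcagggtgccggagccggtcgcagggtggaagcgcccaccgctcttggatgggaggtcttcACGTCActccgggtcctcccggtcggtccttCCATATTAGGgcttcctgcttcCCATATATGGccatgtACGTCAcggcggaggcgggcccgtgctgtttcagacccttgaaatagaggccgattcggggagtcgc

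CArG boxes stood 105 to 96 and 83 to 74 bases before the start of Egr1, and ACGTCA stood 136 to 131 and 67 to 62 bases before it. The Egr2 promoter held a CArG box at 83 to 74 and ACGTCA at 67 to 62, the same positions as the pair nearest the start of Egr1. The Egr4 promoter held ACGTCA at 179 to 174 and at 111 to 106 and no CArG box by these letters. To compare them, the 30 bases around the box and the core are given for the 3 genes, in capitals where they are the box, or the element that stands in its place in Egr4, and the core. The Egr1 window is chr18:26736993-26737022 on the plus strand, the Egr2 window chr20:21054497-21054526 on the minus strand and the Egr4 window chr4:119607917-119607946 on the minus strand. The Egr2 window lies inside the annotated span of that gene, chr20:21050149-21055201, before the start that the promoter table uses.
Egr1 window: tcCCATATATGGccatgtACGTCAcggcgg
Egr2 window: gtCCATATATGGgcagcgACGTCAcgggtt
Egr4 window: gtCCATGTTTGGtcatttACGTCAcggcgc

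The windows were aligned on the core, and in all 3 of them 6 bases separate the element from it. In Egr4, which has no CArG box, the element was taken at that spacing. The Egr4 element keeps the CC and GG ends but has 1 inner base that is neither A nor T. Egr1 and Egr4 shared 23 of 30 bases, Egr1 and Egr2 shared 21, Egr2 and Egr4 shared 21, and 19 positions were the same in all 3. These counts include the 6 bases of the core, which are the same by the alignment. Among 33469 promoters of this length, searched on both strands, 1.5% held a CArG box, 6.95% held ACGTCA and 25 promoters held both. A CArG box followed after 6 bases by ACGTCA on the same strand stood in 4 promoters, which were those of Egr1, Egr2, Dusp5 and the unnamed LOC134485250. That spacing was searched for after it had been seen in Egr1. The Egr binding motif GCGNGGGCG was in 4.29% of promoters and in none of the 3 Egr windows of 250 bases. These matches describe letters and not bound sites.

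**Figure D1:**
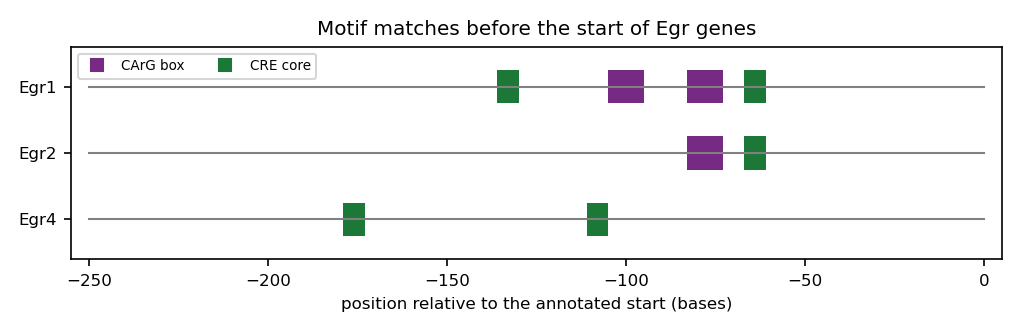
Positions of motif matches in the 250 bases before the annotated start of Egr1, Egr2 and Egr4, in bases relative to the start. Purple blocks are CArG boxes and green blocks are the cyclic AMP response element core (CRE core). Egr1 has 2 of each, Egr2 has 1 of each at the positions of the pair nearest the start of Egr1, and Egr4 has 2 cores.

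The deposited intensities had been scaled to a common level, with trimmed means of 800.5 to 801.1 on every array, and 18.4% to 19.9% of the readings of an array were 0 or negative. The intensity exceeded by the brightest 1% of probe sets was 7111 to 8352 on the 3 ventilated 100% arrays and 9934 to 14547 on the other arrays. A line for a lot batch, with no lot given, stands in the descriptions of 4 arrays: both of spontaneous 21%, letter a of ventilated 100% and the second array of letter b of ventilated 100%. Ventilation at 21% oxygen and oxygen in spontaneous breathing each set arrays without that line against arrays with it. All 8 lung epithelial markers on the array were above 0 in every group, with summed intensities of 44666 to 49676 in ventilated 100%, 69617 to 73654 in ventilated 21%, 60369 to 76515 in spontaneous 100% and 83686 to 97721 in spontaneous 21%.

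Markers of other tissues also differed between the groups. The sum of 13 skeletal muscle genes was 2703 to 2814 in ventilated 100%, 8366 to 8530 in ventilated 21%, 28035 to 29042 in spontaneous 100% and 5876 to 6060 in spontaneous 21%. Of those genes Myh2 and Eno3 were listed at or below 0 in both samples of ventilated 100% and of spontaneous 21%, and Tnni2 in both of ventilated 100%. The sum of 11 T lymphocyte genes was 2804 to 2983 in ventilated 100%, 33438 to 35245 in ventilated 21%, 2919 to 3349 in spontaneous 100% and 3615 to 4108 in spontaneous 21%. The muscle sum was highest in spontaneous 100% and the T lymphocyte sum in ventilated 21%, and every T lymphocyte gene had a reading above 0 in at least 1 sample of each group. Sums of 13 heart genes (13361 to 14323 in ventilated 100%, 17666 to 18203 in ventilated 21%, 28870 to 30815 in spontaneous 100%, 14006 to 14783 in spontaneous 21%) and of 6 neutrophil genes (15356 to 15386, 23092 to 23134, 19568 to 21331 and 18279 to 19956 in the same order) moved less. Among the neutrophil genes the defensin RatNP-3b read 295 and 263 in ventilated 100%, 1117 and 1297 in ventilated 21%, 37.3 and 83.1 in spontaneous 100%, and 8.83 and 28.7 in spontaneous 21%, so it was highest in ventilated 21% and higher in both ventilated groups than in both others. The sum of 6 brown fat genes was 2283 to 3679 in ventilated 100%, 15313 to 16530 in ventilated 21%, 7635 to 7910 in spontaneous 100% and 4755 to 4941 in spontaneous 21%, with Plin1 at or below 0 in all groups. The sum of 3 squamous epithelial genes was 162 to 634, 1380 to 1499, 7204 to 7619 and 1377 to 1883 in the same order, with Krt4 at or below 0 in both ventilated groups, and that of 3 red cell genes was 9887 to 11932, 15366 to 20079, 18614 to 24257 and 22389 to 25946. The brown fat sum was thus highest in ventilated 21% and the squamous sum in spontaneous 100%, but not for every gene. Krt4 carried the squamous sum in spontaneous 100%, at 6289 and 6826. Krt5 was highest in ventilated 21% (669 and 737, against 111 and 93.1 in spontaneous 100%), and Krt14 overlapped between these groups. Of the brown fat genes, Lep overlapped between ventilated 21% and spontaneous 21% (2393 and 3263 against 3439 and 3218). In ventilated 100% Lep, at 1859 and 3135, was most of the sum. The epithelial, muscle, brown fat, squamous, neutrophil and red cell sums were all lowest in ventilated 100%. Most of the neutrophil sum was S100a8 (6399 and 6542 in ventilated 100%, 7835 and 7890 in spontaneous 21%) and S100a9 (6332 and 6531 against 11020 and 9365). Mmp8 (1666 and 1395 against 649 and 600) and Mmp9 (571 and 633 against 400 and 368) went the other way, as RatNP-3b did, and Itgam overlapped. In the red cell sum, Hbb read 2567 and 4907 in ventilated 100% and 19710 and 15090 in spontaneous 21%. Alas2 overlapped between these groups (6297 and 6054 against 5436 and 6399). Slc4a1 was higher in ventilated 100% (1023 and 971 against 800 and 900). The part of tissue makeup in the Egr results was not tested, and in whole tissue fewer cells of a type and less RNA per cell cannot be told apart.

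Egr1, the family member best known as a stress-induced factor, was highest in lungs that had both mechanical ventilation and 100% oxygen. Its probe set AF023087_s_at read 6424 and 5833 in ventilated 100% (letter b is the average of arrays at 5720 and 5945), 1580 and 1761 in ventilated 21%, 1691 and 1640 in spontaneous 100%, and 997 and 1138 in spontaneous 21%. Both samples of ventilated 100% stood above all the others, both of spontaneous 21% stood below all the others, and the groups with 1 of the exposures overlapped. The order of the means was therefore 6128 ± 418 in ventilated 100%, 1670 ± 128 in ventilated 21% and 1666 ± 35.9 in spontaneous 100%, which did not differ beyond their spread, and 1068 ± 99.5 in spontaneous 21% (SD, n = 2 each). Changes below are differences of log2(intensity + 40) with their standard errors, tested with limma over 5244 probe sets, and a call is a Benjamini-Hochberg adjusted p under 0.05.

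The second probe set, M18416_at, read 1761 and 1704 in ventilated 100% (letter b from arrays at 1418 and 1989), 252 and 273 in ventilated 21%, 403 and 288 in spontaneous 100%, and 219 and 304 in spontaneous 21%. Ventilated 100% again stood apart, and spontaneous 21% overlapped both ventilated 21% and spontaneous 100%. The third, rc_AI176662_s_at, read 807 and 588 in ventilated 100%, 134 and 141 in ventilated 21%, 326 and 198 in spontaneous 100%, and 185 and 343 in spontaneous 21%. Here too ventilated 100% was highest, and both samples of ventilated 21% were lowest.

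The fourth Egr1 probe set, U75398_s_at, did not follow the others. It read 279 and 387 in ventilated 100%, 95.4 and 289 in ventilated 21%, 161 and 125 in spontaneous 100%, and 334 and 511 in spontaneous 21%. Its highest mean was in spontaneous 21%, at 423 ± 125, and the ranges of ventilated 100% and spontaneous 21% overlapped. Over the 8 samples the log2 values of AF023087_s_at and M18416_at had a Pearson r of 0.97, and those of AF023087_s_at and U75398_s_at had 0.14. These correlations describe probe sets read on the same arrays.

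**Figure D2:**
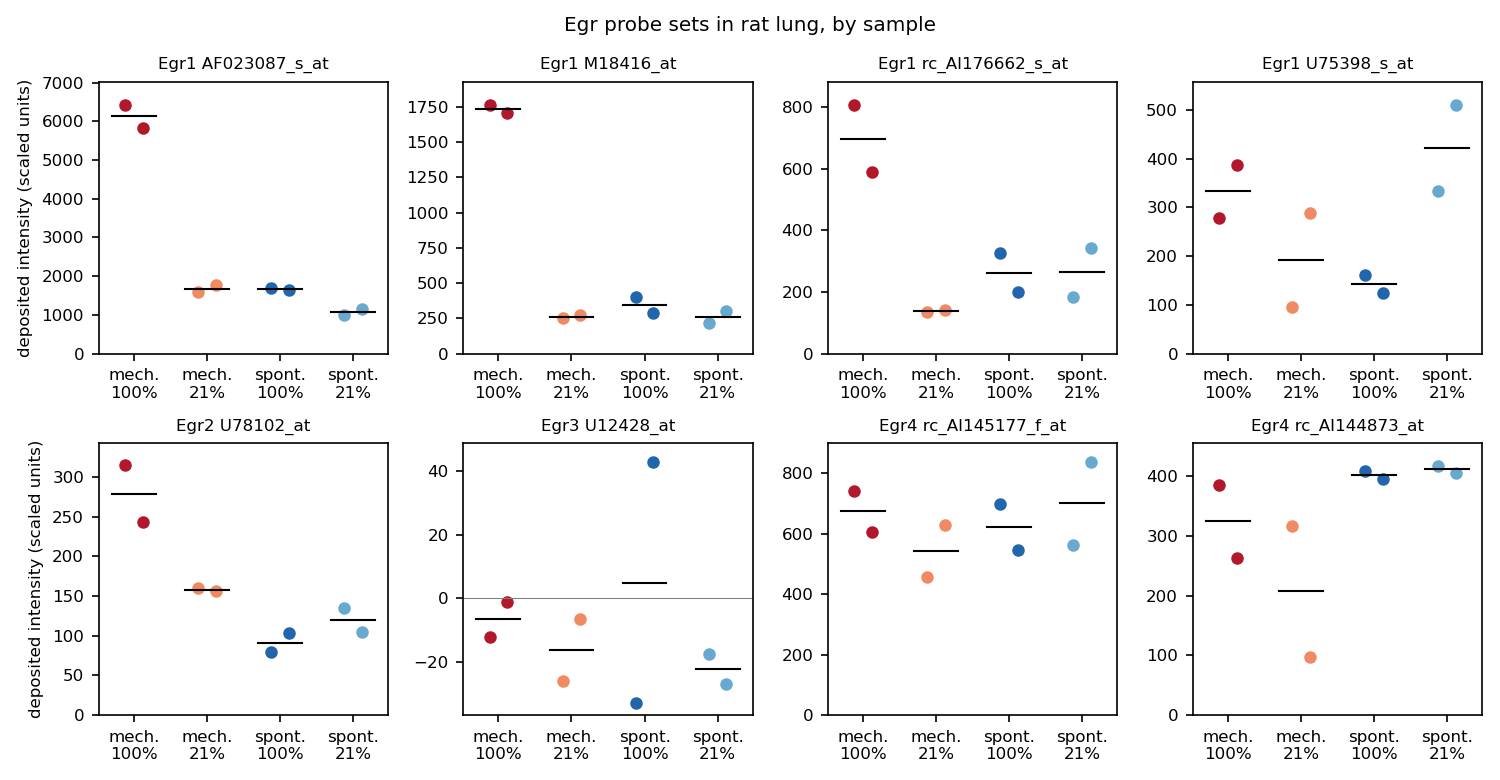
Deposited intensity of each Egr probe set (vertical axes, scaled units, 1 panel per probe set) in each of the 8 samples, grouped as ventilated 100%, ventilated 21%, spontaneous 100% and spontaneous 21%. Points are samples, bars are means of 2 samples. Both samples of ventilated 100% lie above every other sample for the first 3 Egr1 probe sets and for Egr2, Egr3 lies about 0, and the Egr4 groups overlap or lie near each other.

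Egr2 had 1 probe set, U78102_at, which read 315 and 243 in ventilated 100% (letter b from arrays at 237 and 249), 160 and 156 in ventilated 21%, 79.6 and 103 in spontaneous 100%, and 134 and 104 in spontaneous 21%. Both ventilated groups stood above both groups that breathed spontaneously, and ventilated 100% stood above ventilated 21%. The means were 279 ± 50.9, 158 ± 2.69, 91.3 ± 16.6 and 119 ± 21.5 in the same order (SD, n = 2 each), of which spontaneous 100% and spontaneous 21% differed by little more than their spread and did not pass the test. No detection calls were used here, so whether these readings lay above background was not tested. For scale, the 15 control probe sets ending in _st had a median of 63.3 over the arrays and a highest reading of 471. Every Egr2 reading was below that highest one. So was every reading of Egr3 and of the Egr4 probe set rc_AI144873_at. For Egr1 the same held for M18416_at and rc_AI176662_s_at outside ventilated 100%. It also held for U75398_s_at except the 511 in spontaneous 21%.

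Egr3, by its probe set U12428_at, was listed at -12.1 and -1.24 in ventilated 100%, -26.3 and -6.56 in ventilated 21%, -33.0 and 42.8 in spontaneous 100%, and -17.6 and -27.1 in spontaneous 21%. It was above 0 in 1 of the 8 samples and fell among the 40% of probe sets of lowest mean, which were not tested. Of the 8 Egr probe sets 7 were tested.

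Egr4 had a pair of probe sets that did not track each other, with an r of 0.14 over the 8 samples. The probe set rc_AI145177_f_at read 743 and 606 in ventilated 100% (letter b from arrays at 441 and 771), 458 and 630 in ventilated 21%, 699 and 546 in spontaneous 100%, and 563 and 839 in spontaneous 21%. The ranges of all 4 groups overlapped. The other, rc_AI144873_at, read 385 and 263 in ventilated 100% (letter b from arrays at 366 and 160, far apart for a single sample), 316 and 97.6 in ventilated 21%, 409 and 396 in spontaneous 100%, and 418 and 406 in spontaneous 21%. The ventilated samples were all lower than the spontaneously breathing ones for this probe set and spread more widely. Neither passed the test with all samples in the fit: the log2 changes of rc_AI145177_f_at ran from -0.33 to 0.28 over the comparisons of groups and those of rc_AI144873_at from -1.03 to 0.65. For rc_AI144873_at and ventilation at 21% oxygen the 95% interval was -1.97 to -0.09 (adjusted p = 0.13). Without letter a of ventilated 21%, which leaves the lower sample of that group, rc_AI144873_at was called there (-1.71, adjusted p = 0.025), for oxygen under ventilation (1.34, 0.023) and for the difference between the ventilation changes at 100% and at 21% oxygen (1.37, 0.049).

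With 100% oxygen, mechanical ventilation was set against spontaneous breathing. Egr1 rose 3.61-fold by AF023087_s_at (log2 change 1.85 ± 0.13, adjusted p = 8.6e-05) and 4.62-fold by M18416_at (2.21 ± 0.21, adjusted p = 0.00074). The probe set rc_AI176662_s_at rose 2.47-fold (adjusted p = 0.022), and U75398_s_at had a log2 change of 1.02 ± 0.41 that missed the threshold (adjusted p = 0.11). Egr2 rose 2.42-fold (1.28 ± 0.25, adjusted p = 0.011). So 4 of the 7 tested Egr probe sets, from 2 genes, were called higher and none lower, where 16.6% of all tested probe sets were called higher and 10.4% lower. Among 5244 probe sets ordered from the largest rise, M18416_at stood at place 22, AF023087_s_at at 43 and Egr2 at 161. The calls of rc_AI176662_s_at and Egr2 were lost with the lot line as a block (adjusted p = 0.13 and 0.064) and without letter a of ventilated 100% (0.12 and 0.053), and that of rc_AI176662_s_at also without letter b of spontaneous 100% (0.13) and without the filter on low signal (0.092). Within the 5 arrays without the lot line, where ventilated 100% is 1 array, AF023087_s_at and M18416_at still differed, by 1.76 and 1.94 (adjusted p = 0.0023 and 0.0097).

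With 21% oxygen fewer Egr probe sets passed the test. AF023087_s_at rose 1.54-fold (log2 change 0.63 ± 0.13, adjusted p = 0.016) and was the only Egr probe set called, against 7.00% of all tested probe sets called higher and 7.49% lower. M18416_at had a change of 0.02 with a 95% interval of -0.47 to 0.51, and Egr2 had 0.32 with an interval of -0.26 to 0.90. The changes of rc_AI176662_s_at and U75398_s_at were -0.72 and -1.11 (adjusted p = 0.17 and 0.11). The call of AF023087_s_at was lost with the lot line as a block, where its change was 0.74 (adjusted p = 0.11), without letter b of ventilated 21% (0.099) and without letter a of spontaneous 21% (0.063). At this oxygen level ventilation and the lot line cannot be told apart except through the ventilated 100% arrays.

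Oxygen was compared in the same way, 100% against 21%, within each way of breathing. This shares its ventilated 100% samples with the first comparison. Under ventilation AF023087_s_at rose by 1.85 on the log2 scale (adjusted p = 8e-05), M18416_at rose 5.82-fold (2.54, adjusted p = 2e-04) and rc_AI176662_s_at rose 4.1-fold (2.04, adjusted p = 0.0029). These were the 3 of 7 Egr probe sets called, all of 1 gene, with 20.7% of all tested probe sets called higher and 14.4% lower. All 3 calls were kept with the lot line as a block and within the arrays without it. Egr2 had a change of 0.68 with an interval of 0.10 to 1.26 that missed the threshold (adjusted p = 0.07).

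In spontaneous breathing, 1 Egr probe set passed the test for oxygen. AF023087_s_at rose by 0.63 (adjusted p = 0.015), the single one of the 7, where 7.06% of all tested probe sets were called higher and 9.71% lower. M18416_at had 0.35 with an interval of -0.14 to 0.84, Egr2 had -0.28 with -0.86 to 0.30, and U75398_s_at had -1.32 (adjusted p = 0.064). The call of AF023087_s_at was lost with the lot line as a block (adjusted p = 0.092) and without letter a or b of spontaneous 100% (0.068 and 0.06) or letter a of spontaneous 21% (0.065).

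Lungs with both exposures were also set against lungs with neither. Egr1 was 5.57-fold higher by AF023087_s_at (log2 change 2.48, 95% interval 2.19 to 2.77, adjusted p = 3.8e-05), 5.9-fold higher by M18416_at (adjusted p = 0.00035) and 2.48-fold higher by rc_AI176662_s_at (adjusted p = 0.03). Egr2 was 2-fold higher (adjusted p = 0.033), and U75398_s_at had a change of -0.30 (adjusted p = 0.67). That made 4 of 7, from 2 genes, called higher and 0 lower, with 7.49% of all tested probe sets called higher and 7.02% lower. This is the comparison that can be made within the 4 arrays with the lot line, where AF023087_s_at differed by 2.49 and M18416_at by 2.68 (adjusted p = 0.0047 for each), rc_AI176662_s_at by 1.33 (0.069) and Egr2 by 1.02 (0.083). The Egr2 call was lost in 12 of the alternatives tried, among them quantile normalization (adjusted p = 0.059), and that of rc_AI176662_s_at without either sample of ventilated 100% or of ventilated 21%, without letter a of spontaneous 21% and without the filter on low signal (0.12).

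Whether ventilation had a different effect at the 2 oxygen levels was tested as an interaction, the change at 100% oxygen minus the change at 21% oxygen. All 4 Egr1 probe sets had a larger change at 100% oxygen, by 1.23 ± 0.18 for AF023087_s_at (adjusted p = 0.0024), 2.19 ± 0.30 for M18416_at (0.0021), 2.03 for rc_AI176662_s_at (0.014) and 2.13 ± 0.58 for U75398_s_at (0.03). For U75398_s_at this arose from changes that went in opposite directions, neither of them called, and its interaction call was lost in 9 of the 18 alternatives, among them no filter (0.13), quantile normalization (0.054) and 5 of the 8 fits without 1 sample. The call of rc_AI176662_s_at was lost without the filter too (0.07). Left without letter b of ventilated 21%, U75398_s_at was called lower for ventilation at 21% oxygen (-1.75, 0.045) and higher for oxygen under ventilation (1.45, 0.034). Egr2 had 0.96 ± 0.36 (adjusted p = 0.081), and the Egr4 probe sets had 0.42 and 0.68 (adjusted p = 0.40 and 0.41). The 4 of 7 called, which are all readings of 1 gene, Egr1, stand beside 16.9% of all tested probe sets called higher and 10.5% lower. With the lot line as a block none of the 7 was called, with adjusted p-values of 0.12, 0.16, 0.35 and 0.2 for the Egr1 probe sets in the order above and changes of 1.02, 1.53, 1.52 and 2.69. Under that block 151 of the 5244 tested probe sets were called for the interaction, or 2.88%, against 1439 without it.

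**Figure D3:**
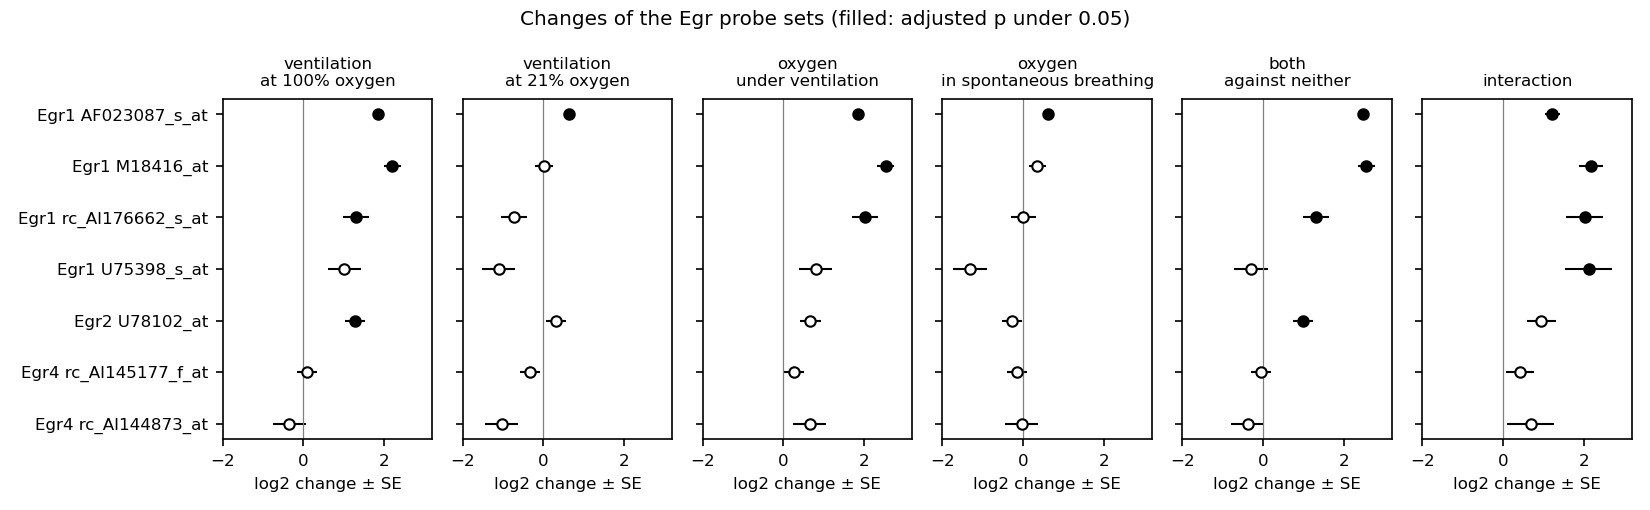
Log2 change with its standard error (horizontal axes) of the 7 tested Egr probe sets (rows) in 5 comparisons of groups and in the interaction. Filled points have an adjusted p under 0.05. The first 3 Egr1 probe sets are filled in each comparison with ventilated 100%, Egr2 is filled for ventilation at 100% oxygen and for both against neither, and no Egr4 point is filled.

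The corepressor Nab1, which binds Egr1 and Egr2 and silences them, was the one of the pair Nab1 and Nab2 that had a probe set. It read 314 and 288 in ventilated 100%, 186 and 150 in ventilated 21%, 274 and 128 in spontaneous 100%, and 87.0 and 107 in spontaneous 21%. It was 1.32 ± 0.32 higher on the log2 scale with both exposures against neither (adjusted p = 0.028), a call lost without any 1 of those 4 samples and without the filter on low signal, and was not called in the other comparisons. Of 16 signalling proteins and promoter factors that act upstream of the Egr genes, 7 were on the array and 5 were tested. With 100% oxygen the MAP kinase p38 alpha gene Mapk14 (0.60 ± 0.14, adjusted p = 0.018) and the MAP kinase kinase gene Map2k1 (0.46 ± 0.12, adjusted p = 0.026) rose under ventilation, and 0 of the 5 fell. These 2 of 5 stand beside 16.6% of all tested probe sets called higher and 10.4% lower. The median change of the 5 was 0.21, against 0.13 over all tested probe sets, and both calls were lost under quantile normalization. The Map2k1 call was also lost with the lot line as a block and without either sample of ventilated 100% or of spontaneous 100%. That of Mapk14 was also lost under cyclic loess normalization, without letter b of ventilated 100% and without either sample of spontaneous 100%.

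Genes that Egr1 is reported to drive in lung or vessel were followed as a list, of which 22 of 29 were on the array and 17 were tested. With 100% oxygen 6 of the 17 rose under ventilation and 1 fell, beside 16.6% and 10.4% of all tested probe sets, and their median log2 change was 0.30 against 0.13. The leukocyte adhesion receptor Icam1 read 5350 and 4804 in ventilated 100% and 2081 and 2136 in spontaneous 100% (log2 change 1.25 ± 0.11, adjusted p = 0.00045). Tissue factor, F3, which starts clotting, read 3444 and 3215 in ventilated 100% and 1407 and 1367 in spontaneous 100% (1.24 ± 0.11, adjusted p = 0.00046). In neither gene did the groups overlap. The stress factor Atf3, fibronectin Fn1, the growth factor Tgfb1 and the cyclin Ccnd1 rose as well, and the inhibitor of differentiation Id3 fell (-0.83 ± 0.16, adjusted p = 0.011). The calls of Tgfb1, Ccnd1 and Id3 were lost without letter a of ventilated 100% and without letter b of spontaneous 100%.

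With 21% oxygen 3 of the 17 rose under ventilation and 3 fell, with a median of -0.15 against -0.06 over all tested probe sets, of which 7.00% were called higher and 7.49% lower. The monocyte chemokine Ccl2 rose by 1.86 (adjusted p = 0.00043), and the stress gene Gadd45a and the cytokine Il1b rose by less. Fn1 fell by 1.44 (adjusted p = 0.00043), reading 2531 and 2486 in ventilated 21% and 6410 and 7379 in spontaneous 21%. Vegfa, which promotes vessel growth, and Tgfb1 fell too, by 0.64 and 0.95 on the log2 scale (adjusted p = 0.025 and 0.037). The calls of Vegfa, Tgfb1, Gadd45a and Il1b were each lost without either sample of ventilated 21%, and those of Vegfa, Tgfb1 and Il1b also when no low probe sets were filtered out (adjusted p = 0.073, 0.12 and 0.14). The interaction was called for 9 of the 17 in the positive direction and 2 in the negative, beside the 16.9% and 10.5% of all tested probe sets. Fn1 had the largest, 2.43 (adjusted p = 0.00012), Icam1 had 1.40 and F3 had 1.16, and Ccl2 had -2.11 (adjusted p = 0.00066). With the lot line as a block the interaction was called for 1 of the 17 in each direction, where 2.88% of all tested probe sets were called. The counts for ventilation at 21% oxygen under that block were 1 higher and 1 lower, where 2.02% of all were called.

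**Figure D4:**
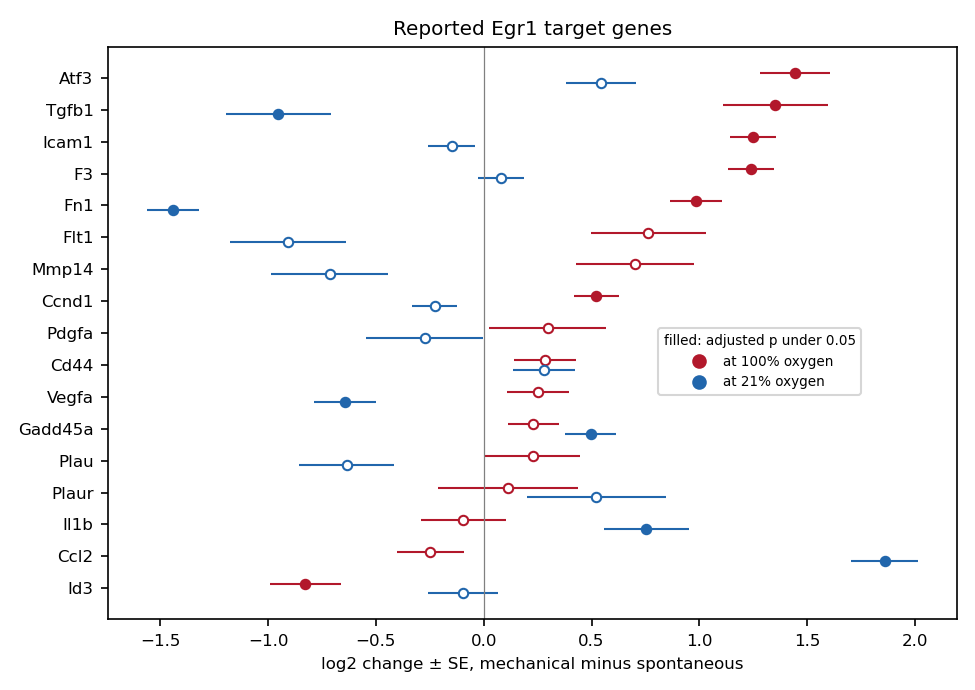
Log2 change with its standard error (horizontal axis), mechanical minus spontaneous, of 17 reported Egr1 target genes at 100% oxygen (red) and at 21% oxygen (blue). Filled points have an adjusted p under 0.05. Icam1 and F3 are filled at 100% oxygen and lie near 0 at 21% oxygen, Fn1 and Tgfb1 are filled on opposite sides of 0 at the 2 oxygen levels, and Ccl2 is filled at 21% oxygen.

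With 100% against 21% oxygen under ventilation, 9 of these 17 genes rose and 0 fell, beside 20.7% and 14.4% of all tested probe sets, with a median of 0.55 against 0.14. Atf3 rose by 2.02 and Fn1 by 1.60 (adjusted p = 0.00016 and 0.00012), and Vegfa rose by 1.06 (adjusted p = 0.0017). In spontaneous breathing 3 rose, Ccl2 by 2.07 and Atf3 by 1.12 among them, and 5 fell, with Fn1 and Icam1 at -0.83 and -0.77. Of all tested probe sets 7.06% rose and 9.71% fell there. Ventilated 100% against spontaneous 21% had 5 higher and 0 lower, beside 7.49% and 7.02% of all, led by Atf3 at 2.56 and Ccl2 at 1.82. Atf3 thus read 3725 and 2907 in ventilated 100%, 843 and 728 in ventilated 21%, 1175 and 1192 in spontaneous 100%, and 487 and 566 in spontaneous 21%, and no pair of groups overlapped. With the lot line as a block the 9 and 0 for oxygen under ventilation became 6 and 0, and the 3 and 5 in spontaneous breathing became 2 and 0. Under that block 17.1% and 2.31% of all tested probe sets were called in either direction for these comparisons.

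Reported targets of Egr2 and Egr3 in nerve and lymphocytes had 9 of 10 on the array and 7 tested. With 100% oxygen the myelin gene Prx, which encodes periaxin (1.11 ± 0.11, adjusted p = 0.00092), and the orphan receptor Nr4a3 (2.36 ± 0.34, adjusted p = 0.0035) rose under ventilation. Ngfr, the low-affinity neurotrophin receptor, fell (-1.58, adjusted p = 0.036), but its change was -0.87 without letter a of ventilated 100% (adjusted p = 0.17) and -0.45 with the lot line as a block (0.59), and its call was lost without either sample of spontaneous 100% as well. Prx read 2439 and 2415 in ventilated 100%, 1577 and 1582 in ventilated 21%, 1118 and 1085 in spontaneous 100%, and 3164 and 3569 in spontaneous 21%, so it was highest with neither exposure, unlike Egr2. At 21% oxygen Prx fell by 1.07 on the log2 scale under ventilation. Of 8 nerve and Schwann cell markers, Nefm had no reading above 0 in any group, Mbp none outside spontaneous 100%, and S100b none in ventilated 100% and spontaneous 21%. Their summed intensity was 7482 to 8810 in ventilated 100%, 7942 to 8460 in ventilated 21%, 6616 to 7479 in spontaneous 100% and 8664 to 8973 in spontaneous 21%. Most of that sum in every group was Pmp22, at 6263 and 7542 in ventilated 100% and 7895 and 7910 in spontaneous 21%. The sum thus mainly follows 1 gene.

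Other immediate early genes had 26 of 39 on the array and 23 tested, and some of them, such as Atf3 and Nr4a3, are also in the lists above. With 100% oxygen 15 of the 23 rose under ventilation and 0 fell, beside 16.6% and 10.4% of all tested probe sets, with a median of 0.89 against 0.13. The orphan receptor Nr4a1 read 6505 and 5635 in ventilated 100%, 559 and 648 in ventilated 21%, 1072 and 757 in spontaneous 100%, and 466 and 751 in spontaneous 21%. The AP-1 subunit Fos read 3479 and 3334, 1064 and 1189, 1584 and 1753, and 1154 and 1065 in the same order. Both were highest in ventilated 100%, as the first 3 Egr1 probe sets were. The phosphatase Dusp5, whose promoter shares the spaced pair of sites with Egr1 and Egr2, read 604 and 587 in ventilated 100%, 264 and 282 in ventilated 21%, 220 and 297 in spontaneous 100%, and 398 and 379 in spontaneous 21%. It rose with ventilation at 100% oxygen (1.10 ± 0.19, adjusted p = 0.0067), and both samples with neither exposure stood above those with 1 exposure.

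With 21% oxygen 1 of these 23 genes rose under ventilation, the cyclic AMP response gene Crem (1.60 ± 0.12, adjusted p = 0.00032), and 3 fell, namely Klf4, Zfp36l1 and Zfp36. These stand beside 7.00% and 7.49% of all tested probe sets. The calls of Klf4, Zfp36l1 and Zfp36 were lost with the lot line as a block (adjusted p = 0.063, 0.094 and 0.16), where 2.02% of all were called. That of Zfp36 was also lost without either sample of ventilated 21%, and that of Zfp36l1 without letter b of ventilated 21%. With 100% against 21% oxygen 15 rose and 0 fell under ventilation (20.7% and 14.4% of all), and 4 rose and 4 fell in spontaneous breathing (7.06% and 9.71% of all). With both exposures against neither 10 were higher and 1 lower (7.49% and 7.02% of all). The interaction was called for 14 in the positive direction and for Crem in the negative (16.9% and 10.5% of all), and with the lot line as a block for 2 and 0, where 2.88% of all were called.

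Of 3178 other tested genes, those whose log2 values over the 8 samples were most like Egr1 by AF023087_s_at were the protease inhibitor Serpina1 (Pearson r = 0.9822), the growth regulator Myc (0.9771), the threonyl-tRNA synthetase gene Tars1 (0.9756), Pvr (0.9708) and the protease inhibitor Serpine2 (0.9705). Serpina1 read 2433 and 2115 in ventilated 100%, 1019 and 1124 in ventilated 21%, 1292 and 1098 in spontaneous 100%, and 728 and 855 in spontaneous 21%. Myc read 1133 and 1179 in ventilated 100% and between 323 and 470 in the other samples. For Egr2 they were the phosphatase Ptp4a1 (0.9803), the mitochondrial enzyme Dlst (0.9767) and F3 (0.9483), and for Egr4 by rc_AI145177_f_at they were Elavl4 (0.8915), Ppp2r3a (0.8809) and Vipr2 (0.8753). Egr1 by AF023087_s_at and Egr2 had an r of 0.83. All these values share the same 8 samples and 4 groups and are descriptions.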

How the data were processed

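The authors deposited 1 intensity per probe set and array. Total RNA of rat lung was hybridised, per the labels. The common trimmed mean of the arrays shows a scaling by the authors, whose software is not given in the sources used here. In the array annotation 7006 probe sets had 1 gene symbol, 308 had several and 1426 had none.

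From these, 59 control probe sets were left out, values below 0 were set to 0, log2(value + 40) was taken, and the 40% of lowest mean were filtered out, leaving 5244. Levels in the text are deposited intensities. Group means of the 8 samples were fitted by limma 3.58.1 under R 4.3.3 (eBayes with a trend of variance on mean, 4 residual degrees of freedom), with Benjamini-Hochberg adjustment over all tested probe sets of a contrast. No exact permutation test was added, since 2 samples against 2 allow no p below 0.333.

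Named genes were every Egr probe set, members of the lists that passed the test or illustrate their count, and the genes of highest correlation with Egr1 (5), Egr2 (3) and Egr4 (3), each gene by its brightest probe set. The members and lists were chosen with earlier results of these data known. The marker sums were used only as a description. The procedure was tested on simulated data. Alternatives covered normalization, offset, filter, the averaged arrays, letter and lot line as blocks, variance trend, the samples in the fit and leaving out each sample. Separate fits of the 4 arrays that have the lot line and of the 5 that lack it were added after seeing the data. Plots used matplotlib 3.10.9 and Python 3.11.15.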

Additional observations from a re-analysis of the deposited data

Results flagged for a closer look

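The effect of ventilation on Egr1 differed between the oxygen levels by a direct test of the difference, the interaction in limma, for its 4 probe sets, of which AF023087_s_at and M18416_at were called in every alternative but the lot line as a block. The change at 100% oxygen minus the change at 21% oxygen was 1.23 for AF023087_s_at, 2.19 for M18416_at, 2.03 for rc_AI176662_s_at and 2.13 for U75398_s_at on the log2 scale. The adjusted p-values were 0.0024, 0.0021, 0.014 and 0.03 in that order, and with the lot line as a block they were 0.12, 0.16, 0.35 and 0.2. The call of U75398_s_at was lost in 9 of 18 alternatives and that of rc_AI176662_s_at in 2, the filter left out among them (adjusted p = 0.13 and 0.07). The part of the lot line in these differences was not tested beyond that fit.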

How the results depend on the processing

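Of the 7 tested Egr probe sets, 4, 1, 3, 1, 4 and 4 were called for ventilation at 100% oxygen, ventilation at 21% oxygen, oxygen under ventilation, oxygen in spontaneous breathing, both against neither and the interaction. Of all tested probe sets 26.9%, 14.5%, 35.1%, 16.8%, 14.5% and 27.4% were called in either direction, in that order. Without the filter on low signal, 3 were called for ventilation at 100% oxygen, 2 for both against neither and 2 for the interaction. The shares of all probe sets called there were 9.11%, 4.54% and 12.6%. With the lowest 60% left out, which removes 4 of the 7, 2 were called for ventilation at 100% oxygen, 2 for both against neither and 2 for the interaction. The shares of all were then 35.7%, 22.1% and 35.9%. With the lot line as a block, 2 were called for ventilation at 100% oxygen and 0 each for ventilation at 21% oxygen, oxygen in spontaneous breathing and the interaction by limma, where 1, 2 and 3 had an unadjusted p under 0.05. Under that block the shares of all tested probe sets called fell too, to 8.96%, 2.02%, 2.31% and 2.88% in the same order. With only the groups compared in the fit, 0 were called for ventilation at 21% oxygen (1 at an unadjusted p under 0.05), 2 for oxygen in spontaneous breathing and 2 for both against neither. The shares of all in those fits were 9.02%, 10.9% and 9.59%. Within the arrays with a lot line 2 were called for both against neither, and within those without it 2 for ventilation at 100% oxygen; the cause of these differences was not tested. Leaving out 1 sample at a time gave 2 to 5 calls for ventilation at 100% oxygen, 0 to 2 for ventilation at 21% oxygen, 0 to 2 for oxygen in spontaneous breathing, 2 to 4 for both against neither, and 3 or 4 for oxygen under ventilation and for the interaction. The letter as replicate block gave 3 calls for both against neither, where Egr2 had an adjusted p of 0.056, and changed no other call of an Egr probe set. Of all tested probe sets 12.2% were called for both against neither with that block. No shared shift of samples with the same letter was seen, since their deviations had correlations of -0.13 to 0.07 over 6 pairs of groups. Whether the letters pair the samples by design is not stated in the labels, and these correlations cannot decide it.

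The directions that turned were of changes not called with all samples in the fit. For Egr4 rc_AI145177_f_at, ventilation at 100% oxygen gave -0.11 with quantile and -0.17 with cyclic loess normalization, -0.1 with the first of the averaged arrays, -0.45 with the lot line as a block or within the arrays without it, and -0.08 to 0.25 leaving out 1 sample. With the lot line as a block it gave 0.40 for ventilation at 21% oxygen, -0.26 for oxygen under ventilation (the same within the arrays without it), 0.58 for oxygen in spontaneous breathing and -0.85 for the interaction. For both against neither it gave 0.13 with the second of the averaged arrays, with that block and within the arrays with the lot line. Leaving out 1 sample gave it -0.33 to 0.21 for both against neither and -0.42 to 0.13 for oxygen in spontaneous breathing. For Egr4 rc_AI144873_at, oxygen in spontaneous breathing gave 0.02 with quantile and 0.06 with cyclic loess normalization. Leaving out 1 sample gave it -0.03 to 1.34 for oxygen under ventilation and 0 to 1.37 for the interaction, the upper values being called (adjusted p = 0.023 and 0.049). It also gave Egr1 M18416_at -0.18 to 0.22 for ventilation at 21% oxygen and rc_AI176662_s_at -0.38 to 0.39 for oxygen in spontaneous breathing.

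A lone sample left in a group is assumed to vary like the other groups. The median change of all tested probe sets for ventilation at 100% oxygen was 0.13 as reported and -0.01 with quantile normalization. Egr3 was fitted only without the filter, where its changes ran from -0.44 to 0.52 and none was called (lowest adjusted p 0.46). With 2 samples a group the number of arrays limits the precision.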
